A study of Saccharomyces cerevisiae with 17 samples.

Results

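The effect of the brr6-1 allele on every gene of Saccharomyces cerevisiae was compared between cells on glucose and cells given galactose. The question was in which genes the mutant departed from wild type by a different amount in each medium. For each gene the difference was (brr6-1 galactose minus WT galactose) minus (brr6-1 glucose minus WT glucose) on the log2 scale, which is the interaction of strain and medium. All 6572 gene rows of the 8 RNA-seq count files were members, and the 5 summary lines of each file were left out. Of these rows, 6297 had enough reads to be tested and 275 did not. The other 9 samples of the 17 in the series are chromatin immunoprecipitations and were not analysed here.

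WT was YPH399, a MATα strain whose auxotrophic alleles are ade2-10 and lys2-801, along with leu2-1, ura3-52 and Trp1-63. The mutant strain, yDBK168, shared these alleles and carried brr6-1:LEU2:HIS3, in which an arginine of the putative zinc finger of Brr6 is replaced by lysine. Each genotype was 1 strain, so brr6-1 cannot be told apart from the LEU2 and HIS3 markers or from any other difference between the strains. The glucose cultures grew in 2% glucose. The galactose cultures grew in YEP medium with 2% raffinose and 0.04% sucrose and then received 2% galactose for 2 h. The medium contrast therefore holds the galactose, the raffinose and sucrose, and the earlier growth without glucose, and these cannot be told apart. All cultures grew at 30 °C to mid-log phase, and each of the 4 groups had 2 biological replicates, A and B. A group is named here by its strain and medium, for example WT galactose.

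Brr6 is an essential protein of the nuclear envelope and endoplasmic reticulum membrane, which works with Brl1 in membrane lipid balance and the assembly of nuclear pores. Glucose represses the genes for other carbon sources, for respiration and for reserve carbohydrates in yeast, and growth without it relieves that repression. Galactose induces the GAL genes through Gal4, and slower growth on poorer carbon sources is accompanied by more stress-protective and less ribosome-building gene expression. A negative difference means that a gene stood lower in brr6-1 relative to WT in galactose than it did in glucose. A positive difference means the opposite. Because 4 groups enter, the same value can come from any of them, so each gene was also assigned to the group that departed from the other 3.

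The libraries held 15059271 to 21637381 gene counts. Reads outside genes were 23.41 to 37.47% of gene and outside-gene reads together. In WT galactose they were 37.27% in replicate A and 26.67% in replicate B, and their part in the results was not tested. The log2 CPM (counts divided by each library's scaled total) of 2 replicates correlated across genes at 0.988 to 0.995. The WT glucose pair was the closest, at a chi-square per degree of freedom of 9.879 against 29.25 to 84.98 in the other groups. The alpha-cell pheromone gene MF(ALPHA)1 was at 88 to 302 CPM in the 8 libraries and the alpha-cell receptor gene STE3 at 87 to 129. The a-cell genes MFA1, MFA2 and AGA2 did not exceed 2.13 CPM, while STE6, another a-cell gene, was at 51.3 to 77.3. CPM is a share of a library, so a change in total RNA per cell is not seen.

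Genes of reserve carbohydrates (14 of 19 tested), general stress (19 of 49) and glycolysis (10 of 23) that passed for the difference all had negative values, so brr6-1 stood lower against WT in galactose than in glucose. In the phosphate starvation response, 8 of 30 tested genes passed with positive values and 1 with a negative one. In ribosome assembly these numbers were 10 and 1 of 107, and in mitochondrial ribosomes 6 and 0 of 60. Most genes of these lists thus did not pass. In all, 352 of 6297 tested genes, or 5.59%, had an adjusted p under 0.05 (edgeR's quasi-likelihood test with Benjamini-Hochberg adjustment, which gives every adjusted p below unless another tool is named). The difference was negative in 248 of them (3.94% of tested genes) and positive in 104 (1.65%). It reached 2-fold in 164 of the negative and 33 of the positive genes. Calls were 107 negative and 15 positive at a mean log2 CPM of 4 to 6, against 51 and 63 at 6 to 8. The median difference over all tested genes was −0.05. Scaling by library totals alone moved this median to −0.14 and gave 306 negative and 69 positive calls, so that 18.4% of calls were positive against 29.5%. The number of calls rested on single libraries, as the plot of calls with each library left out shows. It fell to 3 without WT glucose replicate B, 26 without WT glucose replicate A, 60 without brr6-1 galactose replicate A, 152 without brr6-1 galactose replicate B and 194 without WT galactose replicate A, and it rose to 816 without WT galactose replicate B. All 352 kept their direction in each of those fits, which their choice on the same libraries largely fixes. GPH1, HSP12 and PHO12 were the 3 genes that passed in all 8.

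**Figure D1:**
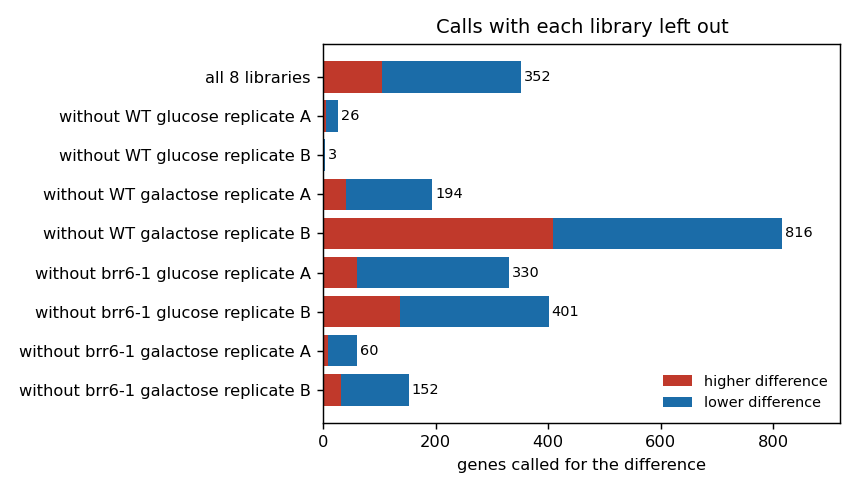
The bars give the number of genes with an adjusted p under 0.05 for the difference, with positive (red) and negative (blue) differences stacked, from the fit to all 8 libraries and from fits with 1 library left out. The total was 352 with all libraries and ranged from 3 to 816 with 1 left out.

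The brr6-1 effects that made up the difference were of several kinds. Among the 352 genes, the brr6-1 effect itself passed in glucose alone in 149, in galactose alone in 114 and in both media in 87, of which 51 had opposite signs. In 2 genes it passed in neither. For comparison, 36.2% of tested genes passed for the brr6-1 effect in glucose (16.7% upward, 19.5% downward) and 22.6% in galactose (8.29% upward, 14.3% downward). The effects of both media share no library, but the difference is built from them, so these counts describe the called genes and test nothing further. Read the other way, the medium effect passed in WT alone in 234 of the 352, in both strains in 80, in brr6-1 alone in 34 and in neither in 4. The size of the medium effect was smaller in brr6-1 than in WT in 288 (81.8%), a share that was not taken over all tested genes. Over all tested genes the medium effect passed in 44.8% in WT (24.3% upward, 20.5% downward) and 16% in brr6-1 (8.75% upward, 7.26% downward).

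**Figure D2:**
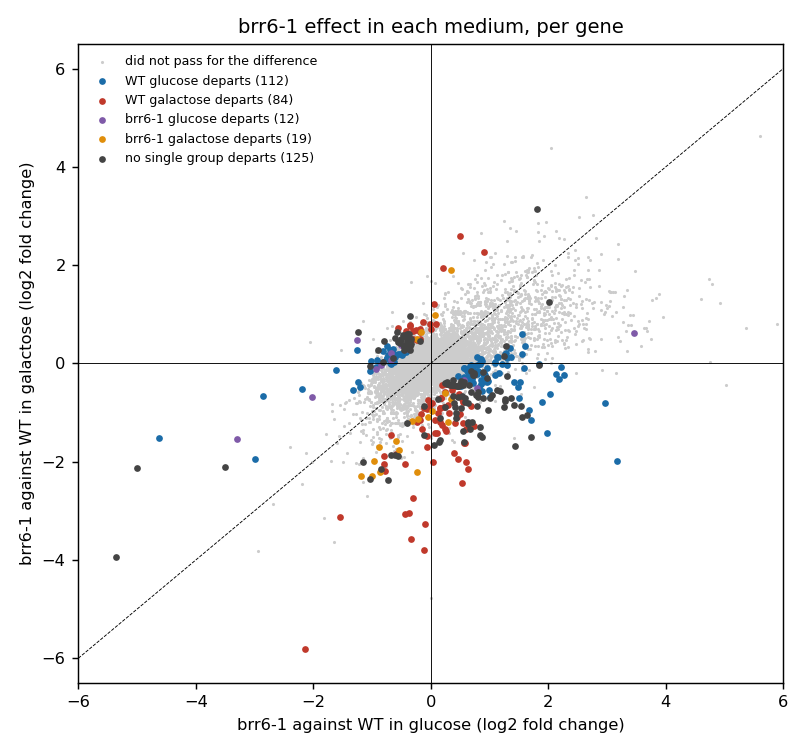
Each point is a tested gene, with the log2 fold change of brr6-1 against WT in glucose on the horizontal axis and in galactose on the vertical axis; colours mark the group that departed from the other 3 among the 352 genes called for the difference, and the dashed line marks equal effects. Genes with WT galactose departing (red) lie mostly near 0 on the glucose axis, genes with WT glucose departing (blue) near 0 on the galactose axis, and 3 genes lie outside the axes.

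A group was said to depart when its mean log2 CPM lay above or below all 3 others and its gap to the nearest of them was larger than the range of those 3. The 2 WT groups accounted for most of the genes that had such a group. WT glucose departed in 112 of the 352 genes (35 above and 77 below the others) and WT galactose in 84 (65 above and 19 below). The brr6-1 glucose group departed in 12 (3 above and 9 below) and brr6-1 galactose in 19 (4 above and 15 below). In the other 125 no single group departed. Among all 6297 tested genes the shares were 11.3% with WT glucose above, 13.5% with WT glucose below, 6.32% with WT galactose above and 5.37% with WT galactose below, and 51.9% had no departing group. Among the 352 called genes the same shares were 9.94%, 21.9%, 18.5%, 5.4% and 35.5%. For brr6-1 glucose above and below, the shares were 0.852% and 2.56% of called genes against 1.76% and 3.4% of tested genes. For brr6-1 galactose above and below, they were 1.14% and 4.26% against 2.99% and 3.46%. Departure of a brr6-1 group was thus about as frequent or rarer among called genes. WT galactose was the highest of the 4 groups in 197 called genes and WT glucose the lowest in 182. These ranks were not counted over all tested genes, so they are not shown to be particular to the called ones. The assignment depends on its threshold, since a gap over 2 times the range left 116 genes with a departing group and a gap over 0.5 times the range gave 314. HBN1, with a gap 1.005 times the range, was just inside the rule and YDR340W, at 0.992, just outside.

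**Figure D3:**
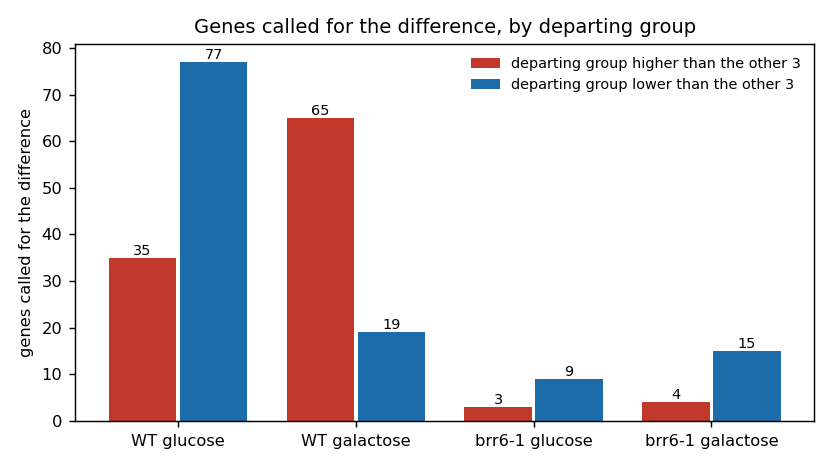
Bars give the number of the 352 called genes in which each group lay above (red) or below (blue) the other 3 by a gap larger than their range. WT glucose below has the most genes with 77, followed by WT galactose above with 65; the 125 genes with no departing group are not drawn.

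In the 65 genes with WT galactose above the others, the level in WT on galactose was, by definition of the class, not reached in brr6-1 on galactose. They included 7 of the 10 most negative differences among genes that reached 10 CPM in a group, among them those of TDH1, HSP26, ADH2, OYE3 and HSP12. TDH1 (chromosome X, 338271 to 339269 in the R64 build, as are all positions here), a glyceraldehyde-3-phosphate dehydrogenase isozyme, stood at 183 and 182 CPM in WT glucose, 3031 and 2013 in WT galactose, 30.4 and 51.4 in brr6-1 glucose, and 46.4 and 43.5 in brr6-1 galactose. Its difference was −3.66 ± 0.36 (adjusted p = 0.00181), and its medium effect was 3.79 in WT and 0.13 in brr6-1. TDH1 has the close paralogs TDH2 and TDH3, so reads of the shared stretches could not be assigned and its level is uncertain. HSP26 (chromosome II, 382030 to 382674), a small heat shock protein that holds unfolded proteins, stood at 19.6 and 18.3 CPM in WT glucose, 151 and 221 in WT galactose, 12 and 17.8 in brr6-1 glucose, and 18.6 and 12.6 in brr6-1 galactose, with a difference of −3.24 ± 0.35 (adjusted p = 0.00218). HSP12 (chromosome VI, 107256 to 107585), a membrane-protecting stress protein, stood at 9.45 and 10.9 CPM in WT glucose, 165 and 147 in WT galactose, 11.6 and 17.7 in brr6-1 glucose, and 30.4 and 27.1 in brr6-1 galactose, with a difference of −2.97 ± 0.27 (adjusted p = 0.00146). In all 3 genes both WT galactose libraries lay above the other 6, and the brr6-1 galactose libraries lay within the range of the glucose libraries or, in HSP12, between them and WT galactose.

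ADH2, the alcohol dehydrogenase that consumes ethanol and is repressed by glucose, stood at 4.92 and 5.21 CPM in WT glucose, 268 and 358 in WT galactose, 6.05 and 3.48 in brr6-1 glucose, and 43.7 and 21.3 in brr6-1 galactose, a difference of −3.17 ± 0.50 (adjusted p = 0.00907). HXT7, a high-affinity hexose transporter, stood at 2.36 and 2.92 CPM in WT glucose, 55.6 and 39.2 in WT galactose, 4.41 and 3.81 in brr6-1 glucose, and 12.1 and 9.32 in brr6-1 galactose, a difference of −2.78 ± 0.34 (adjusted p = 0.00312). HXT7 is nearly identical to HXT6, so its counts are uncertain. Both genes rose on galactose in brr6-1 as well, by 2.78 and 1.38 on the log2 scale, against 5.95 and 4.16 in WT. FIT3, a cell wall mannoprotein that retains iron siderophores, stood at 3.06 and 1.89 CPM in WT glucose, 75.5 and 137 in WT galactose, 2.7 and 1.18 in brr6-1 glucose, and 16.3 and 9.52 in brr6-1 galactose, a difference of −2.67 ± 0.65 (adjusted p = 0.0449). OYE3, an NADPH oxidoreductase of the old yellow enzyme family, stood at 8.04 and 7.55 CPM in WT glucose, 379 and 107 in WT galactose, 7.83 and 6.5 in brr6-1 glucose, and 16 and 19 in brr6-1 galactose, a difference of −3.67 ± 0.68 (adjusted p = 0.0169). YML131W, a reductase-like protein, stood at 37.9 and 37 CPM in WT glucose, 425 and 220 in WT galactose, 23.2 and 31.8 in brr6-1 glucose, and 32.4 and 44.6 in brr6-1 galactose, a difference of −2.63 ± 0.40 (adjusted p = 0.00805). In OYE3 and YML131W the 2 WT galactose replicates were far apart, with replicate A the higher, though both stayed above all other libraries. Among the 8 named genes of the class with WT galactose above, the adjusted p (edgeR) no longer passed in 4 without WT glucose replicate A (p 0.0733 to 0.13), 7 without WT glucose replicate B (p 0.0518 to 0.222), 1 without brr6-1 glucose replicate A (p 0.184), 3 without brr6-1 galactose replicate A (p 0.0521 to 0.0909) and 2 without brr6-1 galactose replicate B (p 0.0509 to 0.0902). With other scalings, filters or tests it was 1 under DESeq2 size factors (p 0.0511), 2 under robust empirical Bayes (p 0.0577 to 0.0731) and 2 under cyclic loess in limma-voom (p 0.0636 to 0.14).

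**Figure D4:**
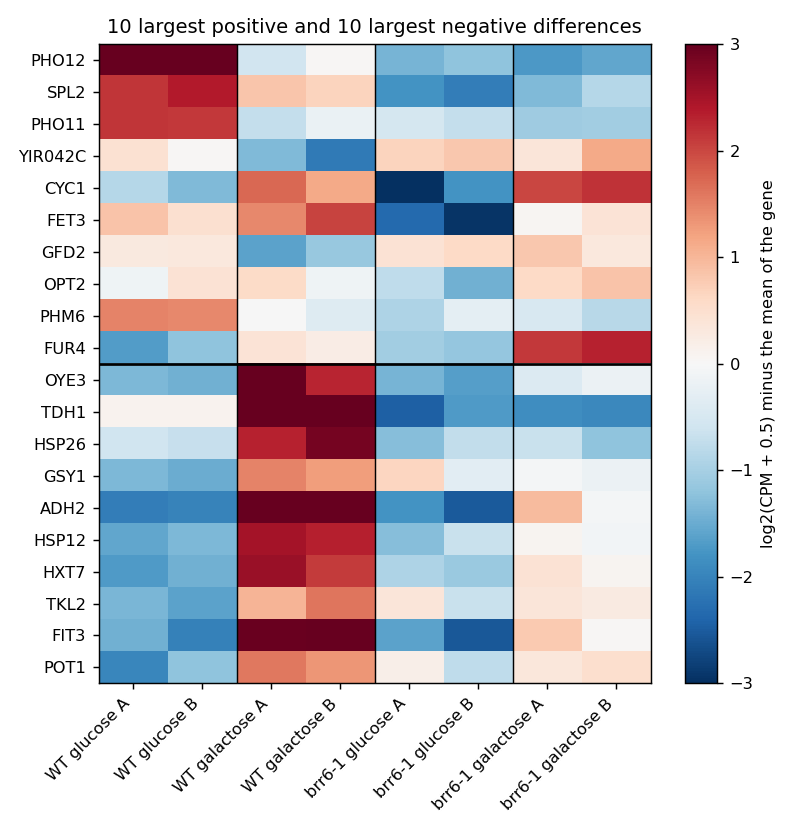
Each row is 1 of the genes with the 10 largest positive (above the line) and 10 largest negative differences, each column a library, and colour gives log2(CPM + 0.5) minus the mean of the gene over the 8 libraries, with colours at their limit beyond 3 in either direction. The lower block is red in the WT galactose columns for all 10 genes, and the upper block is mixed, with PHO12, SPL2, PHO11 and PHM6 red in WT glucose.

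Genes of trehalose and glycogen metabolism, the reserve carbohydrates that yeast stores on poorer carbon sources, stood out by their count: 14 of 19 tested genes were called, all with a negative difference, and 0 with a positive one. Their median difference was −1.23 against −0.05 over all tested genes. The median brr6-1 effect over the 19 genes was 0.41 in glucose and −0.93 in galactose, and the median medium effect was 1.49 in WT and 0.32 in brr6-1. GPH1 (chromosome XVI, 861306 to 864014), glycogen phosphorylase, stood at 35.3 and 38.7 CPM in WT glucose, 531 and 485 in WT galactose, 66.1 and 70 in brr6-1 glucose, and 199 and 164 in brr6-1 galactose. Its difference was −2.36 ± 0.19 (adjusted p = 0.00106), with a brr6-1 effect of 0.88 in glucose and −1.49 in galactose. GLC3, the glycogen branching enzyme, stood at 54.3 and 47.8 CPM in WT glucose, 483 and 356 in WT galactose, 80.5 and 77.8 in brr6-1 glucose, and 176 and 182 in brr6-1 galactose, a difference of −1.86 ± 0.22 (adjusted p = 0.00274). In both genes the groups did not overlap and their order was the same, with WT galactose highest, then brr6-1 galactose, brr6-1 glucose and WT glucose.

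GSY1, a glycogen synthase, stood at 21.2 and 19.2 CPM in WT glucose, 156 and 132 in WT galactose, 87.1 and 44.1 in brr6-1 glucose, and 53 and 48.8 in brr6-1 galactose, a difference of −3.20 ± 0.36 (adjusted p = 0.00248). Here brr6-1 was above WT in glucose and below it in galactose. TPS2, trehalose-6-phosphate phosphatase, stood at 45.1 and 42.8 CPM in WT glucose, 143 and 126 in WT galactose, 57.3 and 59.8 in brr6-1 glucose, and 54 and 62.2 in brr6-1 galactose, a difference of −1.62 ± 0.18 (adjusted p = 0.00225). Its WT galactose libraries were above all others and its WT glucose libraries below all others, with those of brr6-1 in both media from 54 to 62.2 CPM. PGM2, phosphoglucomutase, supplies glucose-1-phosphate for these reserves and for galactose use, and stood at 73.9 and 70.5 CPM in WT glucose, 979 and 1030 in WT galactose, 72.7 and 86.4 in brr6-1 glucose, and 257 and 402 in brr6-1 galactose, a difference of −1.75 ± 0.27 (adjusted p = 0.00905). Among members that did not pass, UGP1, which makes UDP-glucose, was at −0.34 (adjusted p = 0.237) and the trehalase gene NTH2 at −0.43 (adjusted p = 0.193). The count of 14 ranged from 1 to 15 with 1 library left out. Leaving out a library ended the call, by edgeR's adjusted p, of some of the 5 named reserve carbohydrate genes, namely 1 without WT glucose replicate A (p 0.0792) and 4 without WT glucose replicate B (p 0.0518 to 0.0982).

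Stress-protective genes were called with negative differences alone in each of the lists examined in this edgeR fit. Negative calls also prevailed over all tested genes, of which 3.94% were called lower and 1.65% higher. DESeq2's Wald test called 1 general stress gene higher and 23 lower. Of 49 general stress genes, known targets of the activators Msn2 and Msn4, 19 were called lower and 0 higher, with a median of −1.05. The medium effect passed upward in 44 of the 49 in WT and in 14 in brr6-1. DCS2, a stress-induced regulator of mRNA decapping, stood at 21.5 and 21.6 CPM in WT glucose, 97 and 88.4 in WT galactose, 25.2 and 37.1 in brr6-1 glucose, and 39.8 and 39.7 in brr6-1 galactose, a difference of −1.76 ± 0.24 (adjusted p = 0.0058). Its WT galactose libraries were above all others, and the other 6 lay from 21.5 to 39.8 CPM. PNC1, the nicotinamidase, had a difference of −1.03 that did not pass (adjusted p = 0.0788), and glyoxalase I, GLO1, had 0.35 (adjusted p = 0.436).

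Of 32 heat shock protein and chaperone genes, 4 were called lower and 0 higher, with a median of −0.18. That is 12.5% called, against 5.59% of all tested genes. The called genes were HSP30, a plasma membrane stress protein, HSP42, a small heat shock protein, CUR1, which sorts misfolded proteins, and HSP150, a secreted cell wall protein. HSP30 stood at 4.98 and 3.78 CPM in WT glucose, 45.4 and 26.3 in WT galactose, 23 and 16.8 in brr6-1 glucose, and 31.6 and 26.4 in brr6-1 galactose, a difference of −2.49 ± 0.38 (adjusted p = 0.00831). HSP42 stood at 2.94 and 4.18 CPM in WT glucose, 17.8 and 11.3 in WT galactose, 12.3 and 8.13 in brr6-1 glucose, and 10.3 and 12.3 in brr6-1 galactose, a difference of −1.88 ± 0.40 (adjusted p = 0.0312). In these 2 genes WT glucose was below all other libraries, while WT galactose and brr6-1 galactose overlapped. HSP30 lies on chromosome III, whose genes had a median brr6-1 effect of 1.08 in glucose and 0.96 in galactose. The differences of CUR1 and HSP150 were −1.49 ± 0.32 (adjusted p = 0.0301) and −0.96 ± 0.24 (adjusted p = 0.0471). The abundant chaperone genes HSC82 and HSP60 did not pass, at 0.59 (adjusted p = 0.215) and 0.37 (adjusted p = 0.379).

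Of 35 oxidative stress and redox genes, 8 were called lower and 0 higher, with a median of −0.72. ECM4, a glutathione transferase, stood at 22.2 and 15.7 CPM in WT glucose, 257 and 133 in WT galactose, 13.2 and 17.4 in brr6-1 glucose, and 24.1 and 34.6 in brr6-1 galactose, a difference of −2.43 ± 0.44 (adjusted p = 0.0159). GTT2, another glutathione transferase, stood at 35 and 33.8 CPM in WT glucose, 195 and 103 in WT galactose, 30.9 and 34.6 in brr6-1 glucose, and 44.5 and 46.2 in brr6-1 galactose, a difference of −1.65 ± 0.34 (adjusted p = 0.0265). In both, WT galactose replicate A was well above replicate B, as in OYE3. Of 31 cell wall integrity genes, 8 were called lower and 0 higher, with a median of −0.81. GSC2, a glucan synthase subunit, stood at 323 and 352 CPM in WT glucose, 1415 and 1321 in WT galactose, 344 and 365 in brr6-1 glucose, and 437 and 590 in brr6-1 galactose, a difference of −1.48 ± 0.23 (adjusted p = 0.00828). The wall protein gene SED1 and the protease gene YPS1 had differences of −1.42 ± 0.24 (adjusted p = 0.0118) and −1.12 ± 0.20 (adjusted p = 0.0163). GSC2 and YPS1 were above all other libraries in WT galactose. FKS1, the other main glucan synthase gene, was at −0.90 (adjusted p = 0.0733). With 1 library left out, the counts called lower ranged from 1 to 26 for general stress, 0 to 5 for heat shock, 0 to 13 for redox and 0 to 8 for cell wall genes. The 10 named stress and cell wall genes no longer all passed (edgeR, adjusted p) with a library left out, and the number lost was 10 without WT glucose replicate A (p 0.0615 to 0.219), 10 without WT glucose replicate B (p 0.0851 to 0.217), 2 without WT galactose replicate A (p 0.0727 to 0.112), 2 without brr6-1 glucose replicate A (p 0.0504 to 0.0682), 1 without brr6-1 glucose replicate B (p 0.0552), 7 without brr6-1 galactose replicate A (p 0.0542 to 0.154) and 3 without brr6-1 galactose replicate B (p 0.0613 to 0.0708). Other scalings, filters or tests lost 1 under DESeq2 size factors (p 0.0566) and 4 under cyclic loess in limma-voom (p 0.052 to 0.0689).

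Glycolysis and fermentation genes were called lower in 10 of 23 and higher in 0, with a median of −0.74. The median brr6-1 effect over the 23 was −0.38 in glucose, where 10 genes passed downward and 1 upward, and −1.13 in galactose, where 18 passed downward. HXK1, a hexokinase that glucose represses, stood at 54.1 and 53.3 CPM in WT glucose, 1822 and 2336 in WT galactose, 59.8 and 52.4 in brr6-1 glucose, and 708 and 595 in brr6-1 galactose, a difference of −1.74 ± 0.23 (adjusted p = 0.0058). GLK1, glucokinase, stood at 557 and 483 CPM in WT glucose, 3106 and 2998 in WT galactose, 686 and 705 in brr6-1 glucose, and 1446 and 1851 in brr6-1 galactose, a difference of −1.31 ± 0.23 (adjusted p = 0.0153). ENO1, an enolase isozyme, stood at 857 and 980 CPM in WT glucose, 4229 and 3323 in WT galactose, 290 and 339 in brr6-1 glucose, and 366 and 494 in brr6-1 galactose, a difference of −1.59 ± 0.27 (adjusted p = 0.0138). All 3 genes rose on galactose in WT, and HXK1 and GLK1 also in brr6-1. For ENO1 the medium effect in brr6-1 was 0.45 (adjusted p = 0.153). ENO1 and its paralog ENO2 are nearly identical, so both counts are uncertain. ENO2 and the pyruvate kinase gene CDC19 did not pass, at −0.60 (adjusted p = 0.152) and −0.74 (adjusted p = 0.222). GCR1, the main activator of glycolytic genes, stood at 57.8 and 64.2 CPM in WT glucose, 108 and 84.2 in WT galactose, 70.8 and 73.7 in brr6-1 glucose, and 51.9 and 52.2 in brr6-1 galactose, a difference of −1.13 ± 0.20 (adjusted p = 0.014). It passed upward for the medium effect in WT, at 0.66 (adjusted p = 0.00383), and downward in brr6-1, at −0.47 (adjusted p = 0.0443). Its partners GCR2 and RAP1 were at 0.19 (adjusted p = 0.531) and −0.15 (adjusted p = 0.663). The count of 10 ranged from 0 to 9 with 1 library left out. Of 4 named glycolytic genes, those that no longer passed (edgeR, adjusted p) numbered 4 without WT glucose replicate A (p 0.0649 to 0.13), 4 without WT glucose replicate B (p 0.0794 to 0.145) and 3 without brr6-1 galactose replicate A (p 0.079 to 0.0836).

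In the lists of gluconeogenesis and two-carbon use, of fatty acid oxidation, and of hexose transporters and sensors, the calls of this edgeR fit were all negative. DESeq2's Wald test called 1 higher and 10 lower in the first list, and 1 and 6 in the second. Cyclic loess in limma-voom called 1 higher and 2 lower in the third. Of 34 respiratory chain genes, which glucose also represses, 4 were called higher and 0 lower, or 11.8% against 5.59% of all tested genes. The number called higher was 1 with library totals alone, 1 with cyclic loess in limma-voom and 8 with DESeq2's Wald test. Of 29 genes of gluconeogenesis, the glyoxylate cycle and the use of ethanol and acetate, 6 were called lower and 0 higher, with a median of −0.64. Of 18 genes of peroxisomal fatty acid oxidation, 5 were called lower and 0 higher, and of 21 hexose transporter and sensor genes, 4 lower and 0 higher. ALD4, mitochondrial aldehyde dehydrogenase, stood at 68.8 and 58.5 CPM in WT glucose, 506 and 605 in WT galactose, 47 and 47 in brr6-1 glucose, and 129 and 141 in brr6-1 galactose, a difference of −1.60 ± 0.19 (adjusted p = 0.00312). ADR1, an activator of ethanol and fatty acid use, stood at 12.8 and 13.8 CPM in WT glucose, 138 and 135 in WT galactose, 20.5 and 14.3 in brr6-1 glucose, and 70.3 and 85.2 in brr6-1 galactose, a difference of −1.20 ± 0.24 (adjusted p = 0.0256). Both rose on galactose in each strain, to a lower level in brr6-1. CIT3, a mitochondrial citrate and methylcitrate synthase, had a difference of −1.27 ± 0.28 (adjusted p = 0.0326). The invertase gene SUC2 and the peroxisomal citrate synthase gene CIT2 did not pass, at −0.32 (adjusted p = 0.476) and −1.17 (adjusted p = 0.0693).

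FOX2, the multifunctional beta-oxidation enzyme, stood at 5.68 and 6.35 CPM in WT glucose, 41.8 and 28.4 in WT galactose, 12.7 and 9.64 in brr6-1 glucose, and 22.2 and 20.7 in brr6-1 galactose, a difference of −1.60 ± 0.30 (adjusted p = 0.0181). Its brr6-1 effect passed upward in glucose (0.89) and downward in galactose (−0.71). POX1, fatty-acyl coenzyme A oxidase, had a difference of −1.39 ± 0.31 (adjusted p = 0.0336), and PIP2, an activator of oleate-induced genes, had −0.92 ± 0.21 (adjusted p = 0.0393). Among transporters, HXT5, which is induced in slow growth, stood at 3 and 2.75 CPM in WT glucose, 25.4 and 22.6 in WT galactose, 10.1 and 5.38 in brr6-1 glucose, and 11.5 and 15.2 in brr6-1 galactose, a difference of −2.27 ± 0.39 (adjusted p = 0.0138). HXT4 stood at 40.8 and 56.3 CPM in WT glucose, 426 and 439 in WT galactose, 90.6 and 48.6 in brr6-1 glucose, and 235 and 229 in brr6-1 galactose, a difference of −1.41 ± 0.35 (adjusted p = 0.0457), and HXT10 had −1.74 ± 0.38 (adjusted p = 0.0336). HXT5, like FOX2, was higher in brr6-1 than in WT on glucose and lower on galactose, without overlap of the groups in either medium.

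Of 12 GAL regulon genes, 2 were called lower, 1 higher, and 9 did not pass. GAL3, the galactose sensor, stood at 5.04 and 5.49 CPM in WT glucose, 422 and 515 in WT galactose, 7.7 and 6.56 in brr6-1 glucose, and 235 and 231 in brr6-1 galactose, a difference of −1.44 ± 0.22 (adjusted p = 0.00755). Its groups did not overlap in galactose. The galactokinase gene GAL1 stood at 34.4 and 69.2 CPM in WT glucose, 13354 and 17182 in WT galactose, 60.7 and 41.6 in brr6-1 glucose, and 7652 and 9531 in brr6-1 galactose, and its difference of −0.81 ± 0.44 did not pass (adjusted p = 0.288). The permease gene GAL2 was at −0.57 ± 0.52 (adjusted p = 0.529). In glucose both genes were low and their replicates were far apart, with GAL1 in WT at 34.4 and 69.2 CPM. The member called higher was FUR4, described with the genes that were high in brr6-1 galactose. With 1 library left out the counts called lower ranged from 0 to 7 for gluconeogenesis, 0 to 5 for beta-oxidation and 0 to 6 for transporters. Among the 10 named carbon source genes, the adjusted p (edgeR) no longer passed in 9 without WT glucose replicate A (p 0.0807 to 0.204), 10 without WT glucose replicate B (p 0.06 to 0.252), 5 without WT galactose replicate A (p 0.0563 to 0.0991), 1 without WT galactose replicate B (p 0.0525), 3 without brr6-1 glucose replicate A (p 0.0504 to 0.0571), 3 without brr6-1 glucose replicate B (p 0.0506 to 0.0593), 7 without brr6-1 galactose replicate A (p 0.0753 to 0.164) and 6 without brr6-1 galactose replicate B (p 0.0578 to 0.108). With other scalings, filters or tests it was 1 under DESeq2 size factors (p 0.0516), 1 under robust empirical Bayes (p 0.0538) and 7 under cyclic loess in limma-voom (p 0.0502 to 0.0961).

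**Figure D5:**
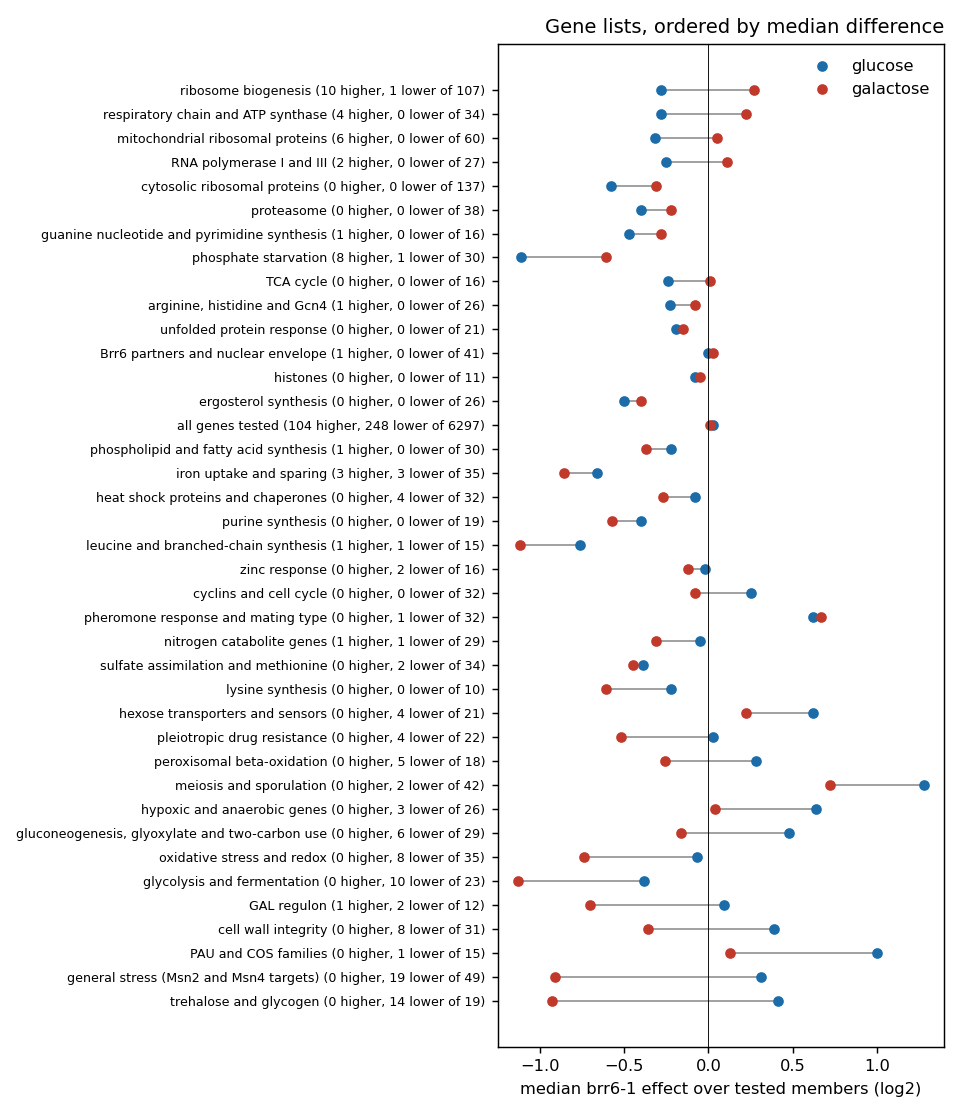
Points give the median log2 brr6-1 effect over the tested members of each gene list in glucose (blue) and galactose (red), ordered by the median difference, with the number called for the difference in each direction. Trehalose and glycogen genes, at the bottom, lay at 0.41 in glucose and −0.93 in galactose, and ribosome biogenesis genes, at the top, at −0.28 and 0.27.

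The 35 genes with WT glucose above the others were led by genes of the phosphate starvation response, which yeast induces through Pho4 when phosphate is short. Of 30 phosphate genes, 8 were called higher and 1 lower. The brr6-1 effect passed downward in 19 of the 30 in glucose, in 18 in galactose and in 16 in both, with medians of −1.11 and −0.61. The median difference was 0.14. PHO12 (chromosome VIII, 552099 to 553502), an acid phosphatase, stood at 119 and 113 CPM in WT glucose, 7.98 and 12.6 in WT galactose, 4.34 and 4.99 in brr6-1 glucose, and 3.37 and 3.83 in brr6-1 galactose. Its difference was 3.12 ± 0.31 (adjusted p = 0.00181), and its medium effect was −3.50 in WT and −0.38 (adjusted p = 0.345) in brr6-1. PHO11, at 2.19 ± 0.29 (adjusted p = 0.00497), is a near-identical copy, so the counts of both are uncertain. Both WT glucose libraries of PHO12 were far above the other 6.

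SPL2, which limits low-affinity phosphate transport, stood at 18.1 and 21.5 CPM in WT glucose, 6.94 and 6.24 in WT galactose, 0.724 and 0.505 in brr6-1 glucose, and 1.19 and 1.81 in brr6-1 galactose, a difference of 2.88 ± 0.41 (adjusted p = 0.00665). VTC3, a subunit of the polyphosphate polymerase, stood at 2930 and 3145 CPM in WT glucose, 901 and 929 in WT galactose, 281 and 258 in brr6-1 glucose, and 213 and 213 in brr6-1 galactose, a difference of 1.39 ± 0.19 (adjusted p = 0.00618). In both genes the WT groups lay above the brr6-1 groups in each medium, and by more in glucose. PHM6, a phosphate-regulated gene of unknown function, stood at 15.3 and 14.8 CPM in WT glucose, 5.03 and 3.77 in WT galactose, 2.44 and 4.04 in brr6-1 glucose, and 3.53 and 2.62 in brr6-1 galactose, a difference of 1.68 ± 0.39 (adjusted p = 0.0393). PHO8, the vacuolar alkaline phosphatase, stood at 686 and 709 CPM in WT glucose, 305 and 307 in WT galactose, 276 and 331 in brr6-1 glucose, and 216 and 223 in brr6-1 galactose, a difference of 0.72 ± 0.18 (adjusted p = 0.0489). VTC4 and VTC2 did not pass, at 0.70 (adjusted p = 0.0562) and 0.63 (adjusted p = 0.0873). The member called lower was PHM8, a phosphatase that acts on lysophosphatidic acid and nucleotides, at −1.32 ± 0.19 (adjusted p = 0.00665), which was named after its value was seen.

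Beyond phosphate, LEU1, isopropylmalate isomerase of leucine synthesis, stood at 6341 and 6906 CPM in WT glucose, 1131 and 1053 in WT galactose, 703 and 951 in brr6-1 glucose, and 263 and 303 in brr6-1 galactose, a difference of 1.05 ± 0.26 (adjusted p = 0.0439). The mutant strain carries LEU2 as a marker, and WT has leu2-1. CAR1, arginase, stood at 982 and 1083 CPM in WT glucose, 423 and 584 in WT galactose, 417 and 447 in brr6-1 glucose, and 576 and 641 in brr6-1 galactose, a difference of 1.53 ± 0.24 (adjusted p = 0.00857). FRE4, a ferric reductase gene, had a difference of 1.49 ± 0.35 (adjusted p = 0.04), and FAA3, an acyl coenzyme A synthetase gene, had 0.88 ± 0.16 (adjusted p = 0.0172). LEU1 fell on galactose in both strains, whereas the medium effect of CAR1 was −1.04 (adjusted p = 9.8e-04) in WT and 0.50 (adjusted p = 0.0741) in brr6-1. The phosphate count of 8 ranged from 1 to 10 with 1 library left out. Leaving out a library ended the call, by edgeR's adjusted p, of some of the 11 named phosphate and other genes with values above, namely 7 without WT glucose replicate A (p 0.0615 to 0.182), 10 without WT glucose replicate B (p 0.0527 to 0.224), 3 without WT galactose replicate A (p 0.0727 to 0.101), 3 without brr6-1 glucose replicate A (p 0.0595 to 0.102), 5 without brr6-1 galactose replicate A (p 0.0623 to 0.178) and 5 without brr6-1 galactose replicate B (p 0.0603 to 0.118). Under other scalings, filters or tests the numbers were 1 under DESeq2 size factors (p 0.0525), 3 under library totals alone (p 0.0504 to 0.0692), 1 under no filter on low counts (p 0.0521) and 2 under cyclic loess in limma-voom (p 0.0866 to 0.105).

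The 77 genes with WT glucose below the others stood, by definition of the class, higher in brr6-1 than in WT on glucose. Their median brr6-1 effect was 0.93 on glucose and −0.19 on galactose. DGR2 (chromosome XI, 214142 to 216700), a gene of unclear function named for deoxyglucose resistance, stood at 16.1 and 15.1 CPM in WT glucose, 62.2 and 57 in WT galactose, 53.2 and 58.6 in brr6-1 glucose, and 52 and 66.4 in brr6-1 galactose. Its difference was −1.85 ± 0.21 (adjusted p = 0.00225), and the 6 libraries outside WT glucose lay from 52 to 66.4 CPM. NGR1, an RNA-binding protein that promotes mRNA decay, stood at 2.75 and 2.69 CPM in WT glucose, 9.97 and 8.82 in WT galactose, 8.69 and 7.79 in brr6-1 glucose, and 11.5 and 12.4 in brr6-1 galactose, a difference of −1.25 ± 0.26 (adjusted p = 0.0278). VNX1, a vacuolar cation exchanger, stood at 3.64 and 3.38 CPM in WT glucose, 12.7 and 9.65 in WT galactose, 12.4 and 8.41 in brr6-1 glucose, and 11.7 and 14.1 in brr6-1 galactose, a difference of −1.36 ± 0.33 (adjusted p = 0.0457). Both replicates of WT glucose were below every other library in these 3 genes. GAC1, a regulator of the phosphatase that activates glycogen synthase, stood at 0.447 and 0.916 CPM in WT glucose, 13.6 and 8.1 in WT galactose, 4.61 and 2.19 in brr6-1 glucose, and 9.14 and 9.37 in brr6-1 galactose, a difference of −2.50 ± 0.60 (adjusted p = 0.0433). ZRG8, a zinc-regulated gene, and STE12, the pheromone response activator, had differences of −1.09 ± 0.26 (adjusted p = 0.0433) and −0.84 ± 0.20 (adjusted p = 0.0433). Of 42 meiosis and sporulation genes, 25 passed upward for the brr6-1 effect in glucose and 11 in galactose. For the difference 2 were called lower, or 4.76%, near the 5.59% called among all tested genes. SPO22, 1 of these called meiosis genes, stood at 7.85 and 7.73 CPM in WT glucose, 29.5 and 25.6 in WT galactose, 18.8 and 21.1 in brr6-1 glucose, and 30.9 and 28.9 in brr6-1 galactose, a difference of −1.24 ± 0.20 (adjusted p = 0.00949).

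Long genes and genes of lower level were frequent in this class, whose median log2 CPM was 4.17 against 5.53 over all tested genes. The median length was 2358 bp over the 77 genes against 1206 bp over the 5757 tested genes that have a length. Of the 77, 21 (27.3%) were at least 3000 bp long, compared with 8.13% of tested genes. Over all classes, 54 of 468 tested genes of that length were called (11.5% against 5.59% of all tested genes), 53 of them with a negative difference and 1 with a positive one. The median difference of the 468 genes was −0.32, with a median brr6-1 effect of 0.30 in glucose and 0.02 in galactose. For genes of 500 to 1000 bp the median difference was 0.07 and 3.67% were called. The part of gene length or level in the results was not tested. The 7 named genes given for WT glucose below no longer all passed (edgeR, adjusted p) with a library left out, and the number lost was 6 without WT glucose replicate A (p 0.107 to 0.209), 7 without WT glucose replicate B (p 0.0527 to 0.251), 5 without WT galactose replicate A (p 0.0565 to 0.111), 3 without brr6-1 glucose replicate A (p 0.0573 to 0.0768), 2 without brr6-1 glucose replicate B (p 0.0518 to 0.0739), 5 without brr6-1 galactose replicate A (p 0.129 to 0.18) and 5 without brr6-1 galactose replicate B (p 0.0666 to 0.101). Other scalings, filters or tests lost 1 under DESeq2 size factors (p 0.0535) and 5 under cyclic loess in limma-voom (p 0.0501 to 0.0992).

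In the 19 genes with WT galactose below the others, brr6-1 on galactose did not, by definition of the class, come down to the level of WT on galactose. TAD2 (chromosome X, 380249 to 381001), a subunit of the tRNA adenosine deaminase, stood at 46.2 and 46 CPM in WT glucose, 19.5 and 20.1 in WT galactose, 49.5 and 46.7 in brr6-1 glucose, and 47.3 and 44.1 in brr6-1 galactose. Its difference was 1.14 ± 0.16 (adjusted p = 0.00665), and the 6 libraries outside WT galactose lay from 44.1 to 49.5 CPM. GFD2, a gene linked to mRNA export by genetic interaction, stood at 383 and 391 CPM in WT glucose, 102 and 142 in WT galactose, 421 and 472 in brr6-1 glucose, and 549 and 388 in brr6-1 galactose, a difference of 1.74 ± 0.28 (adjusted p = 0.00919). YIR042C, an uncharacterised gene, stood at 19.6 and 14.5 CPM in WT glucose, 5.35 and 2.89 in WT galactose, 22.9 and 25.3 in brr6-1 glucose, and 18.5 and 31.8 in brr6-1 galactose, a difference of 2.10 ± 0.43 (adjusted p = 0.0256). In each of the 3 genes both WT galactose libraries were below the other 6. GFD2 lies on chromosome III, whose median brr6-1 effect was 1.08 in glucose and 0.96 in galactose. FYV7, an rRNA processing factor, and RAI1, the partner of the nuclear exonuclease Rat1, had differences of 1.00 ± 0.22 (adjusted p = 0.0336) and 0.82 ± 0.19 (adjusted p = 0.0378). RAI1 lies beside BRR6, which was called in the same direction. YHL050C, a gene of the repeated helicase family at chromosome ends, was at 1.38 ± 0.30 (adjusted p = 0.0336), with counts that near-identical copies make uncertain.

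Ribosome assembly genes were also called mostly with positive differences, but most of those called were outside this class. WT galactose lay below the others in 4 of them and WT glucose above in 3, and in 4 no single group departed. Of 107 ribosome biogenesis genes, 10 were called higher and 1 lower, with a median difference of 0.61 against −0.05 over all tested genes. On galactose 71 of the 107 passed downward in WT, with a median medium effect of −0.64. In brr6-1 0 passed downward and 1 upward, with a median of −0.04. The brr6-1 effect passed downward in 34 and upward in 3 in glucose, and upward in 25 and downward in 0 in galactose. ENP2, a small subunit processome protein, stood at 155 and 153 CPM in WT glucose, 96.2 and 106 in WT galactose, 121 and 118 in brr6-1 glucose, and 173 and 134 in brr6-1 galactose, a difference of 0.97 ± 0.19 (adjusted p = 0.0238). UTP21, of the same complex, stood at 934 and 1070 CPM in WT glucose, 418 and 493 in WT galactose, 752 and 613 in brr6-1 glucose, and 647 and 579 in brr6-1 galactose, a difference of 0.98 ± 0.23 (adjusted p = 0.0383). In ENP2 and UTP21 both WT galactose libraries were the lowest 2 of the 8, though by the rule no single group departed. UTP30 and UTP5, also small subunit assembly factors, had differences of 0.92 ± 0.19 (adjusted p = 0.027) and 0.96 ± 0.22 (adjusted p = 0.04). UTP30 had WT galactose below the others and UTP5 had WT glucose above them. The member called lower was REA1, a long gene for the ATPase that remodels the large subunit precursor, at −0.92 ± 0.23 (adjusted p = 0.0478), which was named after its value was seen. CBF5, the pseudouridine synthase of rRNA, and UTP20 did not pass, at 0.56 (adjusted p = 0.219) and −0.08 (adjusted p = 0.87).

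RPC17, a polymerase III subunit, was at 0.86 ± 0.21 (adjusted p = 0.0477), and RRN11, a polymerase I initiation factor, at 0.80 ± 0.20 (adjusted p = 0.0483). Of 27 RNA polymerase I and III genes, these 2 were called higher and 0 lower, or 7.41%, near the 5.59% of all tested genes. That count ranged from 0 to 11 with 1 library left out. Of 137 cytosolic ribosomal protein genes, 0 passed for the difference, and their median difference was 0.34. At an unadjusted p under 0.05 the number was 27 by edgeR, DESeq2's Wald test called 6 by adjusted p, all higher, and leaving out a library gave 0 to 36 higher calls, the most without WT galactose replicate B. In that list the brr6-1 effect passed downward in 94 genes in glucose and in 40 in galactose. Among them RPL3 and RPL10, both of the large subunit, were at 0.59 (adjusted p = 0.277) and 0.38 (adjusted p = 0.396). The ribosome biogenesis count of 10 ranged from 0 to 55 with 1 library left out. Of 13 named genes given for WT galactose below and ribosome assembly, those that no longer passed (edgeR, adjusted p) numbered 13 without WT glucose replicate A (p 0.0678 to 0.219), 13 without WT glucose replicate B (p 0.0794 to 0.236), 9 without WT galactose replicate A (p 0.0563 to 0.101), 6 without brr6-1 glucose replicate A (p 0.0513 to 0.093), 4 without brr6-1 glucose replicate B (p 0.0547 to 0.066), 10 without brr6-1 galactose replicate A (p 0.0855 to 0.187) and 9 without brr6-1 galactose replicate B (p 0.0603 to 0.126). By other scaling, filter or test, 3 under DESeq2 size factors (p 0.0527 to 0.055), 1 under library totals alone (p 0.0504) and 3 under cyclic loess in limma-voom (p 0.0512 to 0.0518) did not pass.

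The brr6-1 glucose group departed downward in 9 called genes, which included both subunits of the high-affinity iron transporter and 4 mitochondrial ribosomal proteins. FET3 (chromosome XIII, 388822 to 390732), the multicopper oxidase of the high-affinity iron transporter, stood at 756 and 585 CPM in WT glucose, 1137 and 1712 in WT galactose, 82.6 and 53.4 in brr6-1 glucose, and 431 and 551 in brr6-1 galactose. Its difference was 1.77 ± 0.36 (adjusted p = 0.0256), with a brr6-1 effect of −3.30 in glucose and −1.54 in galactose. FTR1, the permease that works with Fet3, stood at 791 and 803 CPM in WT glucose, 795 and 919 in WT galactose, 220 and 172 in brr6-1 glucose, and 661 and 411 in brr6-1 galactose, a difference of 1.35 ± 0.30 (adjusted p = 0.0362). OPT2, an oligopeptide and glutathione transporter, stood at 46.3 and 67.9 CPM in WT glucose, 75.3 and 46.3 in WT galactose, 29.5 and 18.2 in brr6-1 glucose, and 76.7 and 91.5 in brr6-1 galactose, a difference of 1.73 ± 0.39 (adjusted p = 0.0364). Both brr6-1 glucose libraries were the lowest 2 of the 8 in each of the 3 genes. Of 35 iron genes, 3 were called higher and 3 lower, or 0 to 5 higher and 0 to 6 lower with 1 library left out. Those called lower included BNA2, of NAD synthesis, at −2.18 ± 0.23 (adjusted p = 0.00215), and ARN1, a siderophore transporter, at −1.40 ± 0.20 (adjusted p = 0.00665), both with WT galactose above the others. BNA2 overlaps YJR079W, which was also called lower, so their reads may not be separate. The third of them was FIT3, given above.

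Mitochondrial ribosomal protein genes were called higher in 6 of 60 and lower in 0, with a median of 0.43. On galactose 51 of the 60 passed upward in brr6-1, and 17 in WT. MRPS35 stood at 180 and 189 CPM in WT glucose, 140 and 155 in WT galactose, 91.2 and 102 in brr6-1 glucose, and 150 and 123 in brr6-1 galactose, a difference of 0.82 ± 0.19 (adjusted p = 0.0362). RSM28 stood at 203 and 205 CPM in WT glucose, 183 and 198 in WT galactose, 135 and 151 in brr6-1 glucose, and 258 and 236 in brr6-1 galactose, a difference of 0.89 ± 0.17 (adjusted p = 0.0182). Both encode small subunit proteins of the mitochondrial ribosome, and the brr6-1 glucose libraries were lowest in both. RSM26, MRPL10, MRPS17 and MRPL7 had differences of 0.80, 0.76, 0.83 and 0.80 (adjusted p = 0.0489, 0.0433, 0.0333 and 0.0336). Of 34 respiratory chain and ATP synthase genes, 4 were called higher and 0 lower, with a median of 0.45. For the medium effect 33 of the 34 passed upward and 1 downward in each strain. COX4, a cytochrome c oxidase subunit, stood at 95.1 and 103 CPM in WT glucose, 350 and 305 in WT galactose, 51.3 and 60.7 in brr6-1 glucose, and 345 and 321 in brr6-1 galactose, a difference of 0.85 ± 0.19 (adjusted p = 0.0336). The ATP synthase gene ATP4 and the complex III gene QCR6 had differences of 0.75 ± 0.17 (adjusted p = 0.0383) and 1.05 ± 0.22 (adjusted p = 0.029), and the remaining called member was CYC1, described below with its neighbour. In COX4 the strains were apart in glucose and overlapped in galactose. The gene QCR2 was at 0.77 (adjusted p = 0.0672) and did not pass. With 1 library left out the calls numbered 0 to 11 among mitochondrial ribosomal proteins and 0 to 10 upward in the respiratory chain list.

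In 3 called genes brr6-1 glucose lay above the others. SNQ2, a multidrug transporter, stood at 596 and 633 CPM in WT glucose, 868 and 584 in WT galactose, 1114 and 996 in brr6-1 glucose, and 484 and 536 in brr6-1 galactose, a difference of −1.29 ± 0.26 (adjusted p = 0.0256). CYS3, cystathionine gamma-lyase, stood at 58 and 54.9 CPM in WT glucose, 60.3 and 64.1 in WT galactose, 87.9 and 79.7 in brr6-1 glucose, and 43.7 and 55.1 in brr6-1 galactose, a difference of −0.90 ± 0.19 (adjusted p = 0.0315). In both, the 2 brr6-1 glucose libraries were above the other 6. DAN1, a cell wall mannoprotein of anaerobic growth, was at 8 and 10 counts in WT glucose, 29 and 9 in WT galactose, 72 and 131 in brr6-1 glucose, and 26 and 28 in brr6-1 galactose, with an adjusted p of 0.0478. Of 22 pleiotropic drug resistance genes, which include SNQ2, 4 were called lower and 0 higher. The other 3 were PDR15 and TPO4, membrane transporters, and CIS1, at −1.63 ± 0.27 (adjusted p = 0.0111), −1.52 ± 0.32 (adjusted p = 0.0301) and −1.63 ± 0.37 (adjusted p = 0.0361). PDR15 and TPO4 belong to the class with WT galactose above. Among the 20 named genes given for brr6-1 glucose and related lists, the adjusted p (edgeR) no longer passed in 19 without WT glucose replicate A (p 0.0586 to 0.199), 20 without WT glucose replicate B (p 0.0527 to 0.238), 11 without WT galactose replicate A (p 0.0584 to 0.185), 9 without brr6-1 glucose replicate A (p 0.0504 to 0.105), 4 without brr6-1 glucose replicate B (p 0.0593 to 0.0937), 18 without brr6-1 galactose replicate A (p 0.063 to 0.18) and 12 without brr6-1 galactose replicate B (p 0.0566 to 0.107). With other scalings, filters or tests it was 2 under DESeq2 size factors (p 0.0523 to 0.0555), 5 under library totals alone (p 0.0504 to 0.0638), 1 under no filter on low counts (p 0.0523) and 9 under cyclic loess in limma-voom (p 0.0502 to 0.101).

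The brr6-1 galactose group lay below the others in 15 called genes and above them in 4. ZRT1 (chromosome VII, 20978 to 22108), the high-affinity zinc transporter, stood at 84.6 and 98 CPM in WT glucose, 129 and 183 in WT galactose, 63.4 and 92.7 in brr6-1 glucose, and 41.7 and 25.3 in brr6-1 galactose, a difference of −2.00 ± 0.36 (adjusted p = 0.016). Its medium effect passed upward in WT (0.78) and downward in brr6-1 (−1.22). OYE2, the other old yellow enzyme, stood at 1479 and 1580 CPM in WT glucose, 902 and 903 in WT galactose, 767 and 585 in brr6-1 glucose, and 204 and 161 in brr6-1 galactose, a difference of −1.13 ± 0.24 (adjusted p = 0.0323). YHK8, a presumed drug transporter, stood at 64.3 and 69.5 CPM in WT glucose, 34.2 and 23.9 in WT galactose, 43 and 49.3 in brr6-1 glucose, and 7.32 and 9.72 in brr6-1 galactose, a difference of −1.23 ± 0.27 (adjusted p = 0.0336). Both brr6-1 galactose libraries were the lowest 2 of the 8 in these 3 genes, although brr6-1 also lay below WT in glucose in OYE2 and YHK8. OYE2 thus differed from its paralog OYE3 in the group that departed. FRD1, soluble fumarate reductase, stood at 119 and 104 CPM in WT glucose, 88.7 and 133 in WT galactose, 54.2 and 56.9 in brr6-1 glucose, and 22.1 and 23 in brr6-1 galactose, a difference of −1.29 ± 0.25 (adjusted p = 0.0205). MET2, homoserine acetyltransferase of methionine synthesis, and GPP1, a glycerol phosphatase, had differences of −1.34 ± 0.32 (adjusted p = 0.0433) and −0.97 ± 0.21 (adjusted p = 0.0336).

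Among the 4 genes with brr6-1 galactose above the others, the largest gap was that of FUR4 (chromosome II, 281443 to 283344), the uracil permease, whose gene lies beside the GAL7, GAL10 and GAL1 cluster. It stood at 23.9 and 33 CPM in WT glucose, 103 and 90.3 in WT galactose, 37.5 and 34.6 in brr6-1 glucose, and 339 and 386 in brr6-1 galactose, a difference of 1.56 ± 0.23 (adjusted p = 0.00665). FUR4 rose on galactose in both strains, on the log2 scale by 1.77 in WT and 3.33 in brr6-1, and brr6-1 had an effect of 1.90 on galactose against 0.34 (adjusted p = 0.125) in glucose. SFG1, a regulator of filamentous growth, stood at 17.6 and 19.7 CPM in WT glucose, 19.3 and 18.1 in WT galactose, 22.2 and 17 in brr6-1 glucose, and 37.7 and 36.5 in brr6-1 galactose, a difference of 0.92 ± 0.22 (adjusted p = 0.04). AEP2, which is needed for translation of a mitochondrial ATP synthase mRNA, and DET1, a protein linked to sterol transport, had differences of 0.78 ± 0.18 (adjusted p = 0.04) and 0.74 ± 0.16 (adjusted p = 0.0336). In all 4 genes both brr6-1 galactose libraries were above the other 6. Leaving out a library ended the call, by edgeR's adjusted p, of some of the 10 named genes given for brr6-1 galactose, namely 9 without WT glucose replicate A (p 0.118 to 0.19), 10 without WT glucose replicate B (p 0.06 to 0.221), 4 without WT galactose replicate A (p 0.0563 to 0.0883), 3 without brr6-1 glucose replicate A (p 0.055 to 0.0648), 3 without brr6-1 glucose replicate B (p 0.0507 to 0.0632), 8 without brr6-1 galactose replicate A (p 0.075 to 0.164) and 7 without brr6-1 galactose replicate B (p 0.0612 to 0.109). Under other scalings, filters or tests the numbers were 3 under library totals alone (p 0.054 to 0.0621) and 5 under cyclic loess in limma-voom (p 0.0512 to 0.076).

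In 125 called genes no single group departed. The most frequent order of the 4 means, found in 51 of them, was WT galactose, then brr6-1 galactose, brr6-1 glucose and WT glucose. In these the medium moved both strains the same way and brr6-1 less. The next, in 12 genes, had brr6-1 glucose above brr6-1 galactose between the same extremes. TKL2, a transketolase isozyme, stood at 1.98 and 1.6 CPM in WT glucose, 12.5 and 18.9 in WT galactose, 7.77 and 3.53 in brr6-1 glucose, and 7.73 and 7.25 in brr6-1 galactose, a difference of −2.71 ± 0.50 (adjusted p = 0.0172). POT1, the peroxisomal thiolase, stood at 0.958 and 1.95 CPM in WT glucose, 16.5 and 13.7 in WT galactose, 5.92 and 2.86 in brr6-1 glucose, and 6.64 and 7.56 in brr6-1 galactose, a difference of −2.65 ± 0.51 (adjusted p = 0.0191). In both genes all 4 brr6-1 libraries lay between the WT groups.

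The brr6-1 effect passed in both media with opposite signs in 51 called genes, upward in glucose and downward in galactose in 42 and the other way in 9. Besides GSY1, TKL2 and POT1, the first kind included SPG4, a gene of stationary phase survival, at 6 and 8 counts in WT glucose, 96 and 111 in WT galactose, 27 and 28 in brr6-1 glucose, and 43 and 31 in brr6-1 galactose, and BAG7, a GTPase-activating protein, at 11 and 16 counts in WT glucose, 146 and 141 in WT galactose, 33 and 56 in brr6-1 glucose, and 58 and 64 in brr6-1 galactose. These are low counts, and the differences were −3.37 ± 0.56 (adjusted p = 0.0111) and −2.86 ± 0.43 (adjusted p = 0.00791). The second kind was smaller in size. DHR2, an RNA helicase of ribosome assembly, stood at 121 and 128 CPM in WT glucose, 45.8 and 66.1 in WT galactose, 84.9 and 85.1 in brr6-1 glucose, and 103 and 79.3 in brr6-1 galactose, a difference of 1.26 ± 0.25 (adjusted p = 0.0251). SLP1, a protein of the endoplasmic reticulum membrane, stood at 137 and 143 CPM in WT glucose, 74.9 and 84.2 in WT galactose, 80.8 and 107 in brr6-1 glucose, and 135 and 113 in brr6-1 galactose, a difference of 1.22 ± 0.22 (adjusted p = 0.0154). MIX17, a mitochondrial protein, stood at 233 and 231 CPM in WT glucose, 329 and 339 in WT galactose, 147 and 180 in brr6-1 glucose, and 441 and 498 in brr6-1 galactose, a difference of 1.00 ± 0.19 (adjusted p = 0.019). In each of the 3 genes brr6-1 was below WT in glucose and above it in galactose, with no overlap in either medium. NRP1, an RNA-binding protein, and URA3, of uracil synthesis, had differences of 0.93 ± 0.20 (adjusted p = 0.0288) and 0.81 ± 0.18 (adjusted p = 0.0349); both strains carry ura3-52.

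The neighbours ANB1 and CYC1 on chromosome X were called in opposite directions. ANB1 (524908 to 525381), the translation factor isoform used without oxygen, stood at 8.3 and 10.4 CPM in WT glucose, 1.13 and 1.13 in WT galactose, 30.4 and 17.8 in brr6-1 glucose, and 0.519 and 0.856 in brr6-1 galactose, a difference of −2.08 ± 0.51 (adjusted p = 0.0464). CYC1 (526335 to 526664), the aerobic cytochrome c isoform, stood at 28.9 and 20.7 CPM in WT glucose, 176 and 116 in WT galactose, 5.86 and 14.9 in brr6-1 glucose, and 214 and 238 in brr6-1 galactose, a difference of 1.87 ± 0.47 (adjusted p = 0.0483). On glucose ANB1 was higher and CYC1 lower in brr6-1 than in WT (log2 1.36 and −1.24, adjusted p 0.00505 and 0.0224). On galactose the effects were −0.71 (adjusted p = 0.268) and 0.63 (adjusted p = 0.169). The 11 named genes given for these patterns no longer all passed (edgeR, adjusted p) with a library left out, and the number lost was 11 without WT glucose replicate A (p 0.0792 to 0.207), 11 without WT glucose replicate B (p 0.0794 to 0.196), 4 without WT galactose replicate A (p 0.0543 to 0.132), 2 without WT galactose replicate B (p 0.0687 to 0.0735), 3 without brr6-1 glucose replicate A (p 0.0504 to 0.0703), 10 without brr6-1 galactose replicate A (p 0.0507 to 0.19) and 7 without brr6-1 galactose replicate B (p 0.0539 to 0.112). Other scalings, filters or tests lost 2 under DESeq2 size factors (p 0.0516 to 0.052), 1 under library totals alone (p 0.0641), 1 under DESeq2 Wald test (p 0.0688), 1 under robust empirical Bayes (p 0.079) and 3 under cyclic loess in limma-voom (p 0.0591 to 0.126).

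BRR6 itself (chromosome VII, 36933 to 37526) was called for the difference. It stood at 28 and 29.5 CPM in WT glucose, 24.4 and 19.1 in WT galactose, 98.5 and 103 in brr6-1 glucose, and 216 and 169 in brr6-1 galactose. Every brr6-1 library was above every WT library, as the brr6-1 effect was 1.81 in glucose and 3.14 in galactose, and the difference was 1.34 ± 0.22 (adjusted p = 0.0111). The medium effect was −0.40 (adjusted p = 0.0659) in WT and 0.93 (adjusted p = 0.00221) in brr6-1. A point mutation leaves the transcript countable, so the count does not check the allele. The marker LEU2 stood at 370 and 338 CPM in WT glucose, 94.3 and 113 in WT galactose, 1409 and 2003 in brr6-1 glucose, and 563 and 642 in brr6-1 galactose, and its difference of 0.27 ± 0.26 (adjusted p = 0.552) did not pass. HIS3 had 0 and 0 counts in WT glucose, 6 and 3 in WT galactose, 282 and 773 in brr6-1 glucose, and 292 and 298 in brr6-1 galactose, and its difference did not pass (adjusted p = 0.138). HIS3 was nearly uncounted in WT in both media, although the labels list no his3 allele for that strain, and was counted in brr6-1, which carries HIS3 as a marker. Of 41 genes for partners of Brr6, nuclear pores and the nuclear envelope, BRR6 was the 1 called. The abundant pore genes NUP192 and NUP57 were at −0.45 (adjusted p = 0.209) and 0.42 (adjusted p = 0.225).

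Several other gene groups gave no calls for the difference in this fit. These were the TCA cycle (16 genes), ergosterol synthesis (26), the unfolded protein response (21), the proteasome (38), lysine synthesis (10), purine synthesis (19), histones (11) and cyclins and the cell cycle (32), with medians between −0.46 and 0.17. In the order given, edgeR's unadjusted p was under 0.05 in 1, 7, 5, 9, 1, 6, 1 and 12 of them, DESeq2's Wald test called 0, 2, 1, 2, 0, 2, 0 and 2, and leaving out a library gave at most 0, 4, 2, 2, 1, 7, 0 and 2 calls (edgeR). Their missing calls do not show equal effects, as a typical standard error was 0.23 and the smallest called difference 0.62. Of 25 pairs of adjacent called genes, 17 went in the same direction (14 both lower, 3 both higher) and 8 in opposite ones. As 248 of the 352 calls were negative, called genes often share a direction wherever they lie, so nothing about neighbours follows. Chromosome III genes, whose median brr6-1 effect was 1.08 in glucose and 0.96 in galactose, had 9 calls among 159 genes (5.66%). HSP30, GLK1 and GFD2, given above, lie on this chromosome. A shift of brr6-1 in both media can alter which group departs, and its part in the results was not tested. BRR6 did not pass without WT glucose replicate A (adjusted p = 0.0733), WT glucose replicate B (0.0946) or brr6-1 galactose replicate A (0.0613).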

How the data were processed

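The authors deposited, per the file headers and values, raw counts of reads per gene for each of 8 libraries, and the submitters' processing notes name cutadapt, TopHat, HTSeq and the R64 build; their versions and the strand setting of HTSeq are not stated in what was read here. Per the labels' protocols, total RNA was depleted of rRNA and sequenced from directional libraries as single 50 bp reads. Reads HTSeq left out as not unique were 53.49 to 65.28% of all lines. Of 6572 identifiers, 5898 matched a RefSeq R64 gene table, which gave symbols and coordinates.

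Counts were fitted in edgeR 4.0.16 (R 4.3.3; limma 3.58.1) with TMM scaling, a filter on low counts (filterByExpr, minimum count 10) and 1 model over the 4 groups (4 residual degrees of freedom). The quasi-likelihood F test gave p-values, adjusted by Benjamini-Hochberg over 6297 genes, with a threshold of 0.05. Errors after ± are standard errors derived from F. CPM values printed use TMM-scaled totals, and group means for departing groups used a prior count of 2. The procedure was also run on simulated counts with known changes placed in brr6-1 galactose alone, which does not test the calls made in these data. Replicates are biological ones per the labels.

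Named genes were BRR6, LEU2 and HIS3; the 10 largest differences each way and the 6 largest gaps per departing group and direction, with a group mean of at least 10 CPM; up to 4 passed and 2 abundant unpassed members per list; and 6 opposite-effect genes each way. Of the 193 genes this rule gives, the text names those that show each pattern, and exceptions are marked. The members, the 40 gene lists of textbook membership and these rules were chosen with earlier results of these data known. Alternatives were DESeq2 size factors and its Wald test (1.42.0), library totals, no filter, a minimum of 100 counts, robust moderation, a replicate block, cyclic loess in limma-voom, no chromosome III, each library left out, and other gaps and a prior count of 5.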

Additional observations from a re-analysis of the deposited data

Results flagged for a closer look

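The difference itself was tested, and 352 genes had an adjusted p under 0.05 (edgeR), or 3 to 816 with a library left out. Among the 352 genes with effects that passed in both media in opposite directions and a group mean of at least 10 CPM, the 3 with the largest smaller effect each way were as follows. GSY1 (glycogen synthase) had a difference of −3.20, TKL2 (transketolase) −2.71 and POT1 (peroxisomal thiolase) −2.65, each higher in brr6-1 than in WT on glucose and lower on galactose. DHR2 (RNA helicase) had a difference of 1.26, SLP1 (membrane protein) 1.22 and MIX17 (mitochondrial protein) 1.00, each lower in brr6-1 on glucose and higher on galactose. Groups of 2 libraries were too small for a check of single libraries standing apart.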

How the results depend on the processing

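The 352 calls became 275 with DESeq2 size factors, 375 with library totals, 344 without a filter, 417 at a minimum of 100 counts, 360 with robust moderation, 252 with cyclic loess and 349 without chromosome III. DESeq2's Wald test called 617 (271 higher, 346 lower), of which 345 were among the 352. Library totals gave 69 higher calls against 104. With a library left out, calls ranged from 3 to 816, higher calls from 1 to 408 and lower calls from 2 to 408. The brr6-1 effect passed in 516 to 2694 genes in glucose and 423 to 1801 in galactose, and the medium effect in 1548 to 3034 in WT and 492 to 1189 in brr6-1. The lone library of such a group is assumed to vary like the others. The median standard error rose from 0.23 to 0.29 without either WT glucose library. The 227 genes with a departing group became 415 with DESeq2's Wald test, 116 with a gap over 2 times the range and 2 to 581 with a library left out. Over 193 named genes and 17 fits, 2692 results kept their side of the threshold, 534 lost and 45 gained a pass, and 0 reversed; the cause was not tested. Deviations of replicate A from the group mean correlated between groups at −0.0431 to 0.38. The highest value was between WT galactose and brr6-1 glucose, and the next, 0.132, between the brr6-1 groups. Whether the letters mark a shared batch was not tested, and a replicate block gave 306 calls (88 higher, 218 lower). Of 110 named genes that passed, 11 did not with the block (LEU1, FIT3, HSP150, STE12, RRN11, PHO8, HXT4, DAN1, REA1, CYC1 and ANB1, adjusted p 0.0512 to 0.0586). By mean log2 CPM, 1.51% of genes under 2 were called, 6.58% at 2 to 4, 7.49% at 4 to 6, 6.25% at 6 to 8 and 4.54% above. In the same order, calls were 1 higher and 15 lower, 5 and 56, 15 and 107, 63 and 51, and 20 and 19. The median difference was −0.48, −0.28, −0.09, 0.10 and 0.17, and the part of level in the direction of calls was not tested.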
